A study of Mus musculus with 4 samples.

Results

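The p53 pathway was examined in crypts of the mouse intestine that had not been injured. The genes described are 41 listed targets and regulators of p53, of 53845 genes and loci in the table. They were chosen by name as known p53 genes, with earlier results of the same comparison in view, so their values in that comparison are a description and carry no test of their own. Of the 41 genes, 39 had enough reads to enter the whole-table test, each with at least 10 counts in every library, and Ak1 and Cd80 did not. The list was grouped by role into 8 feedback genes, 12 apoptosis genes, 9 arrest genes, 11 metabolism and repair genes and 1 surface ligand gene.

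Crypts, the pits of the gut lining that hold the stem and dividing cells, were released with EDTA from the intestine of C57BL/6 mice, by the methods the small intestine. The mice of the project were of both sexes and aged 6 to 8 weeks. Total RNA was sequenced from 2 wild-type libraries (WT) and 2 Vil-CREPTKO libraries, described by the study as biological replicates. In Vil-CREPTKO mice both copies of the CREPT gene (Rprd1b) carry loxP sites around exon 3, and a Cre recombinase driven by the villin promoter removes that exon in the gut epithelium from embryonic life on, while immune, stromal and vessel cells keep it. In the cross the study shows, the WT littermates would carry the same loxP sites without Cre, but the genotype of the sequenced WT animals was given only as wildtype, and no age was given for a single library. No irradiation or other treatment is named for these mice, so the comparison asks what loss of CREPT does to these genes at rest.

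The p53 protein is a transcription factor that is held low by Mdm2 and Mdm4 and is stabilised by DNA damage and other stress. It binds paired copies of a short DNA motif and switches on genes that restart its own destruction, kill the cell, stop division, or repair DNA and adjust metabolism. In the intestine the crypt is where its activity after radiation is best known, with Bbc3 (PUMA) and Cdkn1a (p21) as classic targets. Because stability of the protein is its main control, the level of Trp53 mRNA says little about its activity.

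Depth was close in the 4 libraries, with 47241049 to 49369315 counts each. Rprd1b (ENSMUSG00000027651), the deleted gene, stood at 60.5 and 61.6 CPM in WT replicates 1 and 2 and at 26.3 and 29.0 CPM in Vil-CREPTKO replicates 1 and 2. CPM are counts scaled to the total of the library, with TMM factors that adjust for composition. The log2 fold change of Rprd1b was -1.14 (SE 0.12, adjusted p 0.0041 by edgeR's quasi-likelihood test), in the direction of the labels. The deposited counts are per gene and not per exon, and they may include reads from cells that keep the exon, a share that was not measured. WT replicate 2 was the only library with a high level of the X-inactivation RNA Xist (863 CPM against 0.299 to 0.530 CPM), so the WT group held both sexes. Mitochondrial genes took 10.2% of the counts in Vil-CREPTKO replicate 1 and 6.75% to 7.62% in the other libraries. The 8 epithelial markers summed to 8641 and 9587 CPM in WT and to 9293 and 8923 CPM in Vil-CREPTKO, with Epcam, Vil1 and Krt8 at 1250 to 3015 CPM across the libraries. Of the 8 markers 3 had a positive log2 fold change and 5 a negative value. Both Vil-CREPTKO libraries were above both WT libraries in 2 markers and below in 2 (21.0% and 24.2% over all genes tested). In bulk RNA, fewer cells of a type and less RNA per cell cannot be told apart.

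Sequences near the start sites were read first, since p53 can act by binding there or in the first intron. Sites farther from the start were not searched. RefSeq (GRCm38.p6) gave a window of 250 bases before and 50 bases after a start site for 33 of the 41 genes. The p53 consensus is a pair of 10-base half-sites, which reads the same on both strands. A match had to keep the central C and G of each half-site, the core of the motif, and to have at most 2 mismatches over the 20 bases and a spacer of at most 1 base, limits set after the windows had been seen. Such a match was found in 6 of the 33 genes with a window and in 0.807% of all 27025 genes with one. With no spacer the values were 5 of 33 and 0.392%, and with a spacer of up to 13 bases they were 8 of 33 and 4.71%. The genes are targets by choice, so the counts describe the list. The 6 matches are shown on the strand of the gene, with the 2 half-sites in capitals and a spacer base in lower case.
Ccng1: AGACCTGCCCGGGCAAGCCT
Rps27l: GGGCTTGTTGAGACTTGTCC
Bax: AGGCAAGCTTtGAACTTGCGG
Gtse1: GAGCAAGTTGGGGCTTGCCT
Ckap2: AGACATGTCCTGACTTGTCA
Cd80: GAACAGGCCTGGACAAGTCA
The Ccng1, Rps27l and Gtse1 matches had 1 mismatch each, and the other 3 had 2 mismatches. The Ccng1 match lay 195 to 176 bases before the start site (chr11:40755462-40755481, minus strand). The Rps27l match (chr9:66946296-66946315, plus strand) lay 117 to 98 bases before the inner one of its RefSeq start sites, within the gene. The Bax match was at chr7:45467079-45467099 and the Ckap2 match at chr8:22186003-22186022, both on the minus strand. The Gtse1 match was at chr15:85859945-85859964 across the start site, and the Cd80 match at chr16:38458822-38458841, both on the plus strand.

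The 250 bases before the start are given for Ccng1, which holds a match, and for Phlda3 and Eda2r, which had the largest differences described below. The capitals mark the match. They run 5′ to 3′ on the strand of each gene, at chr11:40755287-40755536 (minus), chr1:135765835-135766084 (plus) and chrX:97377210-97377459 (minus).
Ccng1: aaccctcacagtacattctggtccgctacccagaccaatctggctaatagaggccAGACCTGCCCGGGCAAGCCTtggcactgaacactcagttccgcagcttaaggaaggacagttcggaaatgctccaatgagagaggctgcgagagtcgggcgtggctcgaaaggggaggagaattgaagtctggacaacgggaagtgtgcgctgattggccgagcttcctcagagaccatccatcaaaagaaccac
Phlda3: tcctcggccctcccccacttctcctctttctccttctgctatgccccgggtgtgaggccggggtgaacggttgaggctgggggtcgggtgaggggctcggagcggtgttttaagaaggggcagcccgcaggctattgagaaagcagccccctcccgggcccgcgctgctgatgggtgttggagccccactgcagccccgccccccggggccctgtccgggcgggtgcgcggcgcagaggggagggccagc
Eda2r: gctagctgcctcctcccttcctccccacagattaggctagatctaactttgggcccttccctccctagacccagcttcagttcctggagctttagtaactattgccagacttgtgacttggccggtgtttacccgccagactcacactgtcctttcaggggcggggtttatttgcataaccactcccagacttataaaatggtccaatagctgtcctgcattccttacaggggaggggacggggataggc
The printed bases of Phlda3 were rich in G and C (71.2%), and those of Eda2r had a G and C content of 53.2%. Neither window held a match. The absence of a match says only that these letters are not in these windows.

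Most of the p53 genes had small differences between the groups, and the largest were in genes of low expression. Calls needed a log2 fold change beyond 1 in either direction together with an adjusted p under 0.05. By that measure 2 of the 39 genes tested were higher in Vil-CREPTKO (Phlda3 and Eda2r), against a background of 0.297% of the 17504 genes tested, and 0 were lower, against 1.34%. Another 4 genes had an adjusted p under 0.05 with a smaller difference. Among all genes with such a p, at any fold change, Ccng1, Zmat3, Phlda3 and Eda2r made 4 of 39 higher (background 0.423%) and Btg2 and Dcxr made 2 of 39 lower (background 2.29%). At an unadjusted p under 0.05 the number was 14 of 39, and over all genes 2495 of 17504. The log2 fold change was positive in 31 genes and negative in 8, with a median of 0.11, and over all genes tested the median was -0.0060 with 49.1% positive. Most of these values lay close to 0, and 16 of the 39 genes took the opposite sign under at least 1 of the 12 other settings of the processing. With library-size scaling the split was 21 positive and 18 negative and the median 0.0089, against -0.098 for all genes.

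**Figure D1:**
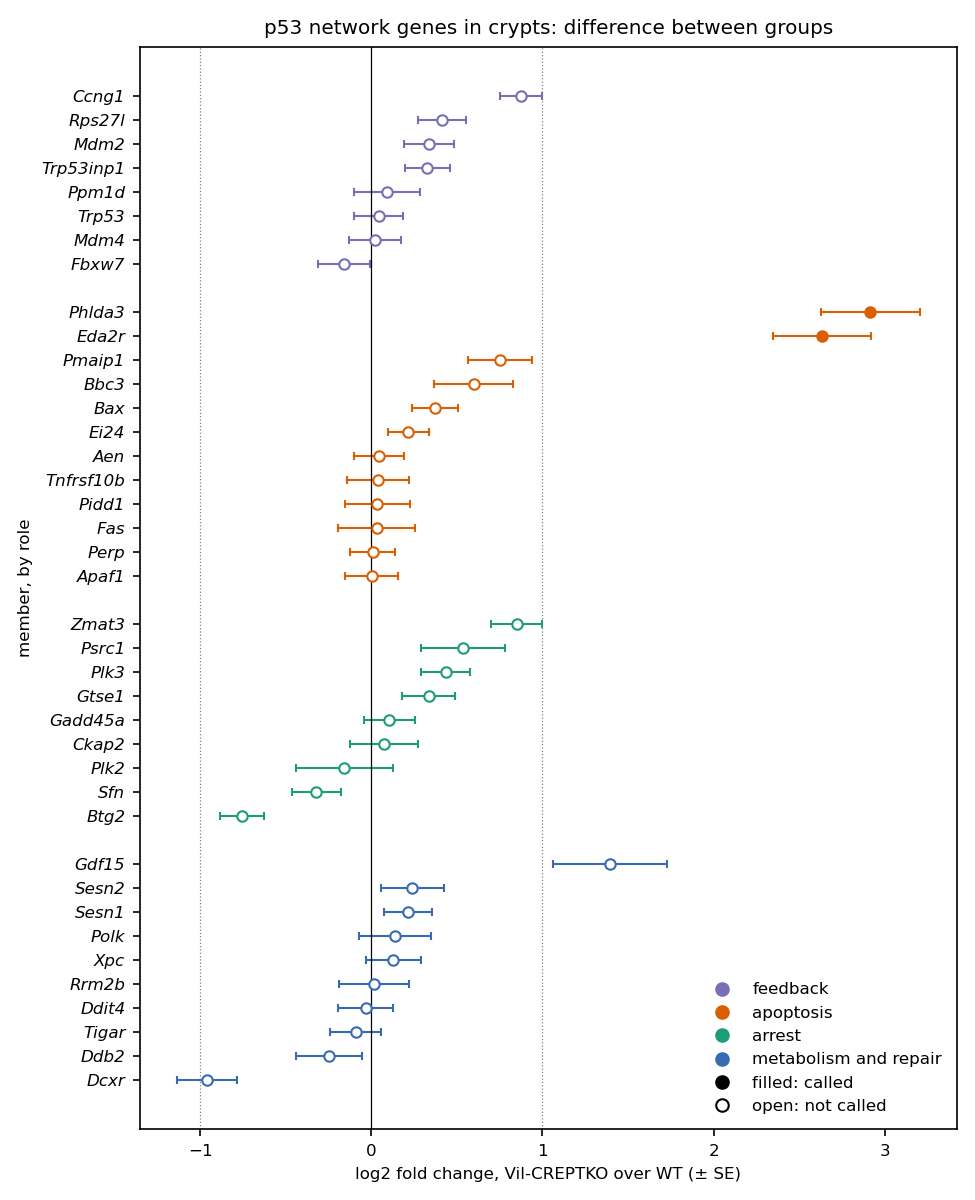
Log2 fold change of Vil-CREPTKO over WT for the 39 p53 genes tested, grouped by role, with bars of 1 standard error from the fit over 4 libraries. Filled points are called genes and dotted lines mark a log2 fold change of 1 in either direction. Only Phlda3 (2.92) and Eda2r (2.63) are filled, and Dcxr (-0.96) and Btg2 (-0.75) are the lowest.

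The size of the differences was set beside the spread between replicates. The median absolute log2 difference between the group means was 0.22 for the p53 genes. Between replicates the median absolute difference was 0.17 within WT and 0.15 within Vil-CREPTKO. For all genes tested the same medians were 0.22 between groups, 0.21 within WT and 0.23 within Vil-CREPTKO. The scales are unlike, since a mean of 2 libraries varies less than a single library does. In 16 of the 39 genes both Vil-CREPTKO libraries were above both WT libraries, and in 5 they were below. Over all genes tested 21.0% were above and 24.2% were below in this way. Summed over the 41 genes, the level was 1675 and 1656 CPM in WT and 1924 and 1828 CPM in Vil-CREPTKO. Most of that step lay in the feedback group (589 and 532 CPM against 717 and 687 CPM) and the apoptosis group (459 and 483 CPM against 577 and 535 CPM). Within these groups a few genes had the largest steps in mean CPM from WT to Vil-CREPTKO. They were Rps27l (176 to 234.5), Ccng1 (68.7 to 126) and Pmaip1 (63.8 to 107.5), so the sums do not describe each gene of a group.

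**Figure D2:**
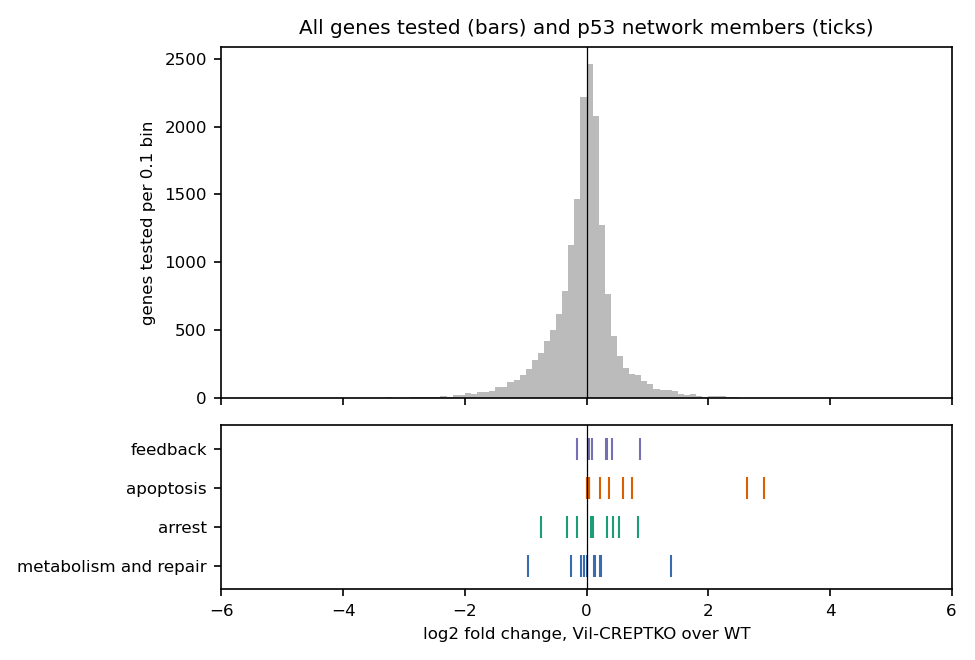
Histogram of the log2 fold change, Vil-CREPTKO over WT, of the 17504 genes tested in bins of 0.1 (top, values beyond the axis counted in the end bins), and the same value for each of the 39 p53 genes as a tick by role (bottom). Ticks crowd between 0 and 0.5, and the 2 ticks far to the right are Eda2r and Phlda3 of the apoptosis group.

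Genes of the p53 feedback loop come first. Trp53 (ENSMUSG00000059552, chr11:69580359-69591873), which encodes p53, was at 80.5 and 72.4 CPM in WT replicates 1 and 2 and at 69.8 and 87.7 CPM in Vil-CREPTKO replicates 1 and 2. The Vil-CREPTKO values enclosed those of WT, and the log2 fold change was 0.043 (SE 0.14), which turned to -0.13 without Vil-CREPTKO replicate 2. Mdm4, the partner of Mdm2 that masks p53, likewise overlapped at 140.2 and 108 CPM in WT and 129.8 and 122 CPM in Vil-CREPTKO, giving a log2 fold change of 0.020 (SE 0.15).

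Mdm2 and Ccng1 are direct targets that feed back on p53. Mdm2 (ENSMUSG00000020184, chr10:117688875-117710758), the ubiquitin ligase that destroys p53, was at 62.0 and 55.3 CPM in WT and at 82.8 and 65.4 CPM in Vil-CREPTKO. The groups did not overlap, but the lower Vil-CREPTKO library was close to the higher WT library, and the log2 fold change of 0.34 (SE 0.14) was not called. It ranged from 0.15 without Vil-CREPTKO replicate 1 to 0.50 without Vil-CREPTKO replicate 2. Ccng1 (ENSMUSG00000020326, chr11:40748552-40755311), which encodes cyclin G1 and acts on Mdm2 through a phosphatase, was at 65.2 and 72.3 CPM in WT and at 129.7 and 122 CPM in Vil-CREPTKO. Both Vil-CREPTKO libraries were well above both WT libraries, at a mean of 68.7 ± 4.99 CPM in WT against 126 ± 5.28 CPM in Vil-CREPTKO (SD, n = 2 each). Ccng1 thus stood at 1.83 times its WT level (log2 fold change 0.87, SE 0.12), short of the fold limit for a call.

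Rps27l, a ribosomal protein relative that is itself induced by p53, was at 183 and 169 CPM in WT and at 246 and 223 CPM in Vil-CREPTKO. The groups did not overlap and the log2 fold change was 0.41 (SE 0.14). Its reads may be shared with its close relative Rps27, since the handling of reads with several matches is not given in the sources used here. Fbxw7, a ubiquitin ligase subunit that p53 regulates, had the lowest log2 fold change of the group and stood at 15.9 and 16.6 CPM in WT and 13.8 and 15.2 CPM in Vil-CREPTKO, giving a log2 fold change of -0.16 (SE 0.15). Of the other 2 feedback genes, Trp53inp1, which promotes phosphorylation of p53, had a log2 fold change of 0.33 without overlap of the groups, and Ppm1d, a phosphatase that ends the damage signal, had 0.091. The median of the 8 feedback genes was 0.21, with 7 positive and, under library-size scaling, 5 positive.

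The apoptosis genes held both called genes. Phlda3 (ENSMUSG00000041801, chr1:135766119-135769136) encodes a small PH domain protein that holds back the survival kinase Akt. It was covered by 43 and 47 counts in WT against 257 and 377 in Vil-CREPTKO, or 0.842 and 0.955 CPM against 5.91 and 7.68 CPM. Both Vil-CREPTKO libraries were several times above both WT libraries. The mean was 0.899 ± 0.0796 CPM in WT against 6.79 ± 1.25 CPM in Vil-CREPTKO (SD, n = 2 each), a 7.56-fold difference (log2 fold change 2.92, SE 0.29). Only 22 of the 17504 genes tested had a higher log2 fold change, and over the other settings the value stayed between 2.72 and 3.09.

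Eda2r (ENSMUSG00000034457, chrX:97333840-97377216) encodes XEDAR, a receptor of the tumour necrosis factor family for ectodysplasin A2. It was covered by 63 and 80 counts in WT against 318 and 512 in Vil-CREPTKO, or 1.23 and 1.63 CPM against 7.32 and 10.4 CPM. The Vil-CREPTKO libraries differed from each other by more than the WT libraries did, but both were far above them. The mean was 1.43 ± 0.277 CPM in WT against 8.87 ± 2.20 CPM in Vil-CREPTKO (SD, n = 2 each), a 6.20-fold difference (log2 fold change 2.63, SE 0.29, 2.36 to 2.86 over the other settings). The gene is on the X chromosome, and the female WT library had the higher of the WT values.

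Other apoptosis genes include those that act on mitochondria, for which the library values are given because the genes are well known and were chosen after their values were seen. Pmaip1, which encodes the BH3-only protein Noxa, was at 72.8 and 54.9 CPM in WT and at 124.6 and 90.4 CPM in Vil-CREPTKO. Bbc3, which encodes PUMA, was at 5.31 and 3.96 CPM in WT and at 6.79 and 7.25 CPM in Vil-CREPTKO. Bax, the pore former downstream of both, was at 30.2 and 25.6 CPM in WT and at 37.0 and 35.2 CPM in Vil-CREPTKO. In each of the 3 genes both Vil-CREPTKO libraries were above both WT libraries, with log2 fold changes of 0.75 (SE 0.19) for Pmaip1, 0.60 (SE 0.23) for Bbc3 and 0.37 (SE 0.14) for Bax, and none was called. Pmaip1 reached an adjusted p under 0.05 with DESeq2, without the filter on low counts, with replicate number in the model, and after correction for GC content and length. It did not with the other scalings or with at least 10 counts required in every library. With a library left out its log2 fold change ran from 0.50 without Vil-CREPTKO replicate 1 to 0.97 without Vil-CREPTKO replicate 2. Bax shares 192 bases, or 12.2% of its exon length, with the gene model Gm45808 on the same strand, so part of its reads could have been assigned there.

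Of the other 7 apoptosis genes, 6 had log2 fold changes close to 0. Perp, a membrane protein of desmosomes and of p53-dependent death, was at 131.8 and 148 CPM in WT and at 142 and 139 CPM in Vil-CREPTKO, giving a log2 fold change of 0.0078 (SE 0.13). Apaf1, which builds the apoptosome, was at 71.7 and 96.3 CPM in WT and at 87.8 and 80.7 CPM in Vil-CREPTKO, giving a log2 fold change of 0.0035 (SE 0.15). In both genes the WT values enclosed those of Vil-CREPTKO. The receptors Fas and Tnfrsf10b had log2 fold changes of 0.031 and 0.038, the nuclease Aen 0.048 and the death domain adaptor Pidd1 0.035. Ei24, an endoplasmic reticulum protein, had 0.22 without overlap of the groups. All 12 log2 fold changes of the group were positive, but 6 of them were under 0.05 and these 6 were negative with library-size scaling. The median was 0.13.

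**Figure D3:**
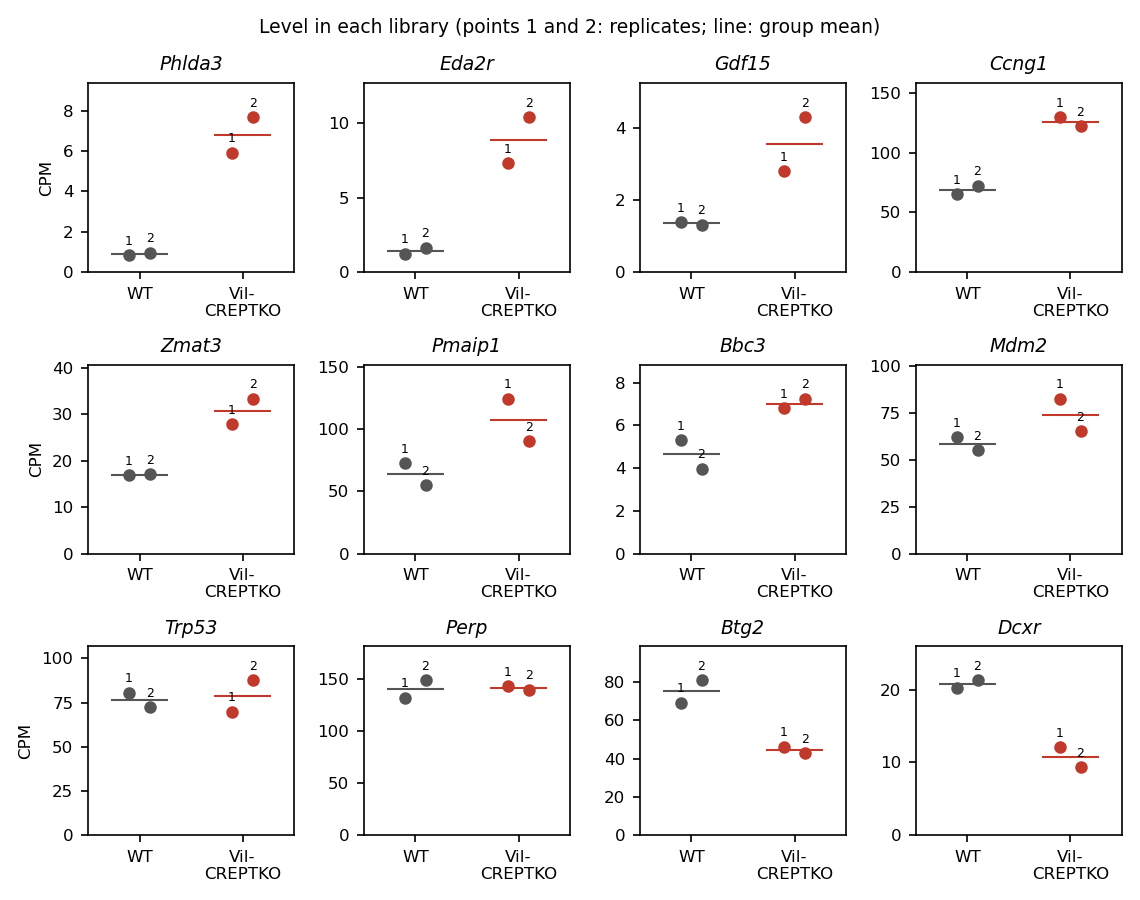
CPM in each of the 4 libraries for 12 p53 genes, with points 1 and 2 for the replicates, a line for the group mean and axes that start at 0. Phlda3 and Eda2r are under 2 CPM in both WT libraries and above 5 CPM in both Vil-CREPTKO libraries, Trp53 and Perp overlap, and Btg2 and Dcxr are lower in both Vil-CREPTKO libraries.

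The arrest genes went both ways. Zmat3 (ENSMUSG00000027663, chr3:32334792-32366014), an RNA-binding zinc finger protein that acts on splicing and stability of transcripts, was at 16.9 and 17.1 CPM in WT and at 27.9 and 33.4 CPM in Vil-CREPTKO. The mean was 17.0 ± 0.115 CPM in WT against 30.6 ± 3.93 CPM in Vil-CREPTKO (SD, n = 2 each), or 180.2% of WT (log2 fold change 0.85, SE 0.15). Psrc1, a spindle protein, was at 4.21 CPM in both WT libraries and at 5.11 and 7.11 CPM in Vil-CREPTKO, giving a log2 fold change of 0.54 (SE 0.24).

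Btg2 (ENSMUSG00000020423, chr1:134075170-134079120), an antiproliferative partner of the mRNA deadenylase complex, was at 69.3 and 81.2 CPM in WT and at 46.3 and 42.9 CPM in Vil-CREPTKO. It is a direct target that p53 raises in textbook settings, and here it stood at 59.3% of WT without overlap (log2 fold change -0.75, SE 0.13). The adjusted p of Btg2 was no longer under 0.05 without WT replicate 2. Sfn, which encodes 14-3-3 sigma and holds cells before mitosis, was at 116 and 135 CPM in WT and at 109.6 and 91.3 CPM in Vil-CREPTKO, again without overlap (log2 fold change -0.32, SE 0.14).

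The other 5 arrest genes had log2 fold changes from -0.16 for the kinase Plk2 to 0.43 for the kinase Plk3. Gtse1, which moves p53 out of the nucleus in the late cell cycle, had 0.33, the growth arrest protein Gadd45a 0.11 and the spindle protein Ckap2 0.074. Gtse1, Ckap2 and Psrc1 are also expressed with the cell cycle. The 17 proliferation markers summed to 1608 and 1698 CPM in WT and to 1395 and 1763 CPM in Vil-CREPTKO. None of the 17 was called, where 0.297% of all genes tested were called higher and 1.34% lower. The log2 fold changes of these markers were positive in 4 and negative in 13, with a median of -0.053. Both Vil-CREPTKO libraries were below both WT libraries in 3 markers and above in 0 (24.2% and 21.0% over all genes tested). Whether the cell cycle had a part in the values of Gtse1, Ckap2 and Psrc1 was not tested. Gadd45a shares 337 bases (19.1%) of its exons and Plk3 84 bases (3.32%) with a gene on the opposite strand, and the strand setting of the counting is not given in the sources used here. The median of the 9 arrest genes was 0.11, and it fell to -0.00079 without WT replicate 1.

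Among the metabolism and repair genes, Gdf15 and Dcxr stood at the ends. Gdf15 (ENSMUSG00000038508, chr8:70629393-70632456), a secreted stress cytokine, was covered by 71 and 65 counts in WT against 122 and 212 in Vil-CREPTKO, or 1.39 and 1.32 CPM against 2.81 and 4.32 CPM. Both Vil-CREPTKO libraries were higher, but they differed from each other by as much as the lower of them differed from WT. The log2 fold change of 1.39 (SE 0.33) passed the fold limit and not the adjusted p, and 258 genes had a higher one. Gdf15 was called with DESeq2, without the filter on low counts, after correction for GC content and length, and without Vil-CREPTKO replicate 1, with values of 1.05 to 1.67 over all settings.

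Dcxr (ENSMUSG00000039450, chr11:120725399-120727281), a reductase of sugars and dicarbonyls, was at 20.3 and 21.4 CPM in WT and at 12.1 and 9.35 CPM in Vil-CREPTKO. The mean was 20.8 ± 0.736 CPM in WT against 10.7 ± 1.93 CPM in Vil-CREPTKO (SD, n = 2 each), or 51.4% of WT. Its log2 fold change of -0.96 (SE 0.17) stopped just short of the fold limit, and Dcxr was called lower with library-size scaling and without Vil-CREPTKO replicate 1.

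DNA repair genes differed less. Ddb2, the damage sensor of nucleotide excision repair, was at 9.38 and 8.07 CPM in WT and at 7.04 and 7.66 CPM in Vil-CREPTKO, giving a log2 fold change of -0.25 (SE 0.19). Its exons overlap those of Acp2 on the opposite strand over 652 bases, or 23.8% of their length. Xpc, another damage sensor, had a log2 fold change of 0.13, the translesion polymerase Polk 0.14 and the ribonucleotide reductase subunit Rrm2b 0.014.

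Sesn2, a sensor that holds back mTORC1, was at 11.3 and 12.3 CPM in WT and at 12.0 and 15.7 CPM in Vil-CREPTKO, giving a log2 fold change of 0.24 (SE 0.18), with overlap of the groups. Its relative Sesn1 had 0.21, the mTORC1 inhibitor Ddit4 -0.034 and the glycolysis regulator Tigar -0.092. The median of the 10 genes of the group that were tested was 0.071. It was -0.024 with library-size scaling and -0.092 without WT replicate 2. Ak1, an adenylate kinase, had 13 and 5 counts in WT and 4 and 4 in Vil-CREPTKO. Cd80, the costimulatory ligand of T cells, had 6 and 5 counts in WT and 4 and 11 in Vil-CREPTKO, so no difference could be detected at this depth for either gene.

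Levels between genes were compared per length, as RPKM, which is CPM divided by the length of all exons of a gene in kilobases. In WT, 14 of the 41 genes were at or above 10 RPKM and 6 were under 1 RPKM. Rps27l had the highest mean level in WT at 216 RPKM, followed by Sfn at 77.7, Perp at 71.8 and Ddit4 at 59.5 RPKM. Trp53 itself was at 18.9 RPKM, Ccng1 at 19.6, Mdm2 at 11.5 and Mdm4 at 8.39 RPKM. The called genes stood near the other end, with Phlda3 at 0.576 and Eda2r at 0.243 RPKM in WT, and Gdf15 at 0.732 RPKM was close to them. Below Eda2r lay only the untested genes, Ak1 at 0.0687 and Cd80 at 0.0296 RPKM. The 3 highest differences in the list were thus in genes that were little expressed in WT, whereas Ccng1 and Pmaip1 differed at levels near that of Trp53.

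**Figure D4:**
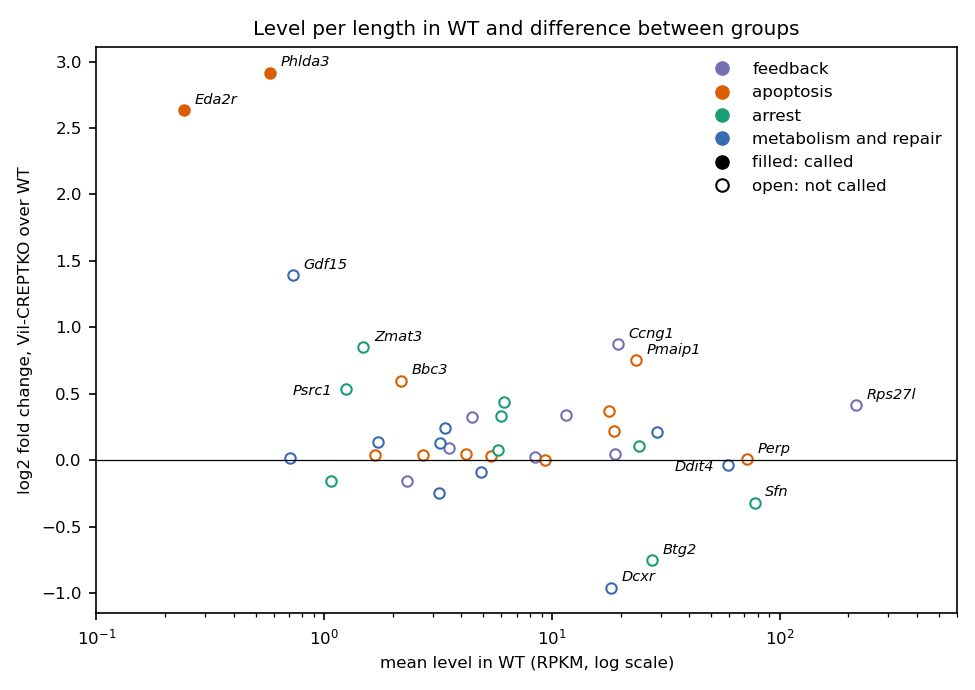
Mean level in WT per length (RPKM, log axis) against the log2 fold change of Vil-CREPTKO over WT for the 39 p53 genes tested, coloured by role, with filled points for called genes. Eda2r, Phlda3 and Gdf15 lie at the upper left, under 1 RPKM in WT, and the genes above 50 RPKM (Rps27l, Sfn, Perp, Ddit4) lie between -0.32 and 0.41.

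Further p53 targets outside the list were counted in the same fit. Of 24 such genes 21 were tested, and 1 was called higher and 0 lower, against 0.297% and 1.34% of all genes tested. At an unadjusted p under 0.05 the number was 4 of 21, and over all genes 2495 of 17504. The log2 fold changes of the 21 genes were positive in 12 and negative in 9, with a median of 0.050. Both Vil-CREPTKO libraries were above both WT libraries in 5 of the 21 genes and below in 3 (21.0% and 24.2% over all genes tested). Fdxr, singled out after its values were seen, was at 11.97 and 11.6 CPM in WT and at 17.85 and 20.1 CPM in Vil-CREPTKO. Its log2 fold change was 0.69 (SE 0.16, adjusted p 0.0601 by edgeR's test), and it was not called. Cdkn1a, which encodes the cell cycle inhibitor p21, was at 153 and 182 CPM in WT and at 202 and 144 CPM in Vil-CREPTKO. The Vil-CREPTKO values enclosed those of WT, and no difference was detected at a log2 fold change of 0.050 (SE 0.19, adjusted p 0.943 by edgeR's test). The called gene was Ephx1 (ENSMUSG00000038776), the microsomal epoxide hydrolase, at 16.5 and 19.4 CPM in WT and 62.7 and 68.4 CPM in Vil-CREPTKO. Ephx1 rose 3.65-fold without overlap (log2 fold change 1.87, SE 0.14, edgeR adjusted p 0.00108).

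Genes that act on p53 were the other comparison. Of 22 such regulators, among them the damage kinases Atm and Atr, the acetylases Ep300 and Crebbp and the ribosomal proteins Rpl5 and Rpl11 that restrain Mdm2, 19 were tested. By edgeR's test 0 were called in either direction, where 0.297% of all genes tested were called higher and 1.34% lower. An unadjusted p under 0.05 was reached by 0 of the 19, and over all genes by 2495 of 17504. The log2 fold changes of the 19 genes ran from -0.25 to 0.24, with a median of -0.036. Trp63, Trp73 and Cdkn2a had too few counts to be tested.

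Markers of other cells in the preparation were read beside these values. The 16 immune markers, led by the intraepithelial lymphocyte genes Gzma and Gzmb, summed to 869.8 and 692 CPM in WT and to 662 and 568 CPM in Vil-CREPTKO. None was at 0 in any library. None was called, where 0.297% of all genes tested were called higher and 1.34% lower. Of the 16 markers 7 had a positive log2 fold change and 9 a negative value. Both Vil-CREPTKO libraries were below both WT libraries in 4 markers and above in 2 (24.2% and 21.0% over all genes tested). The 4 were Cd8a, Gzma, Gzmb and Itgam, with log2 fold changes from -0.59 to -0.29. Among the positive markers was Jchain of plasma cells, which was singled out after its values were seen. Jchain was at 13.01 and 8.78 CPM in WT and at 17.6 and 24.4 CPM in Vil-CREPTKO, without overlap (log2 fold change 0.95, SE 0.23, adjusted p 0.0787 by edgeR's test). The 10 stromal and vascular markers summed to 8.68 and 9.996 CPM in WT and to 21.5 and 5.46 CPM in Vil-CREPTKO, 0 of the 6 tested were called, and Pdgfra, Lum and Cdh5 were at 0 in Vil-CREPTKO replicate 2. The 6 smooth muscle markers summed to under 1 CPM in every library, with Acta2 at 0 in 2 libraries. Whether other cells, sex or the mitochondrial share had a part in the differences of the p53 genes was not tested.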

How the data were processed

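Whole-number read counts per gene were deposited by the authors, 1 column per library. The submitters' processing notes name CASAVA 1.8, Bowtie2, RSEM and build GRCm38.p6, and the counting step, annotation and strand setting are not given in the sources used here. Instruments are named differently in the methods (BGISEQ) and the record (Illumina). Symbols and exon lengths were taken from GENCODE M21.

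The model was fitted with edgeR 4.0.16 in R 4.3.3 (filterByExpr, TMM, glmQLFit and glmQLFTest, two-sided, group as the only term, 2 libraries per group). P-values were adjusted over the 17504 genes tested by the Benjamini-Hochberg method. The calling thresholds were those of the study. The standard error was the log2 fold change divided by the square root of F. The script was tested on simulated data. The biological coefficient of variation was 0.19, so spread between libraries limited precision for well-covered genes, while counting error also weighed for genes of few counts (Ak1, Cd80, and Phlda3 in WT). A count of 0 allows up to 3 counts, or 0.0588 to 0.069 CPM.

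The genes and all lists were chosen with earlier results of these data known. Values in every library were given for Rprd1b, Trp53, Mdm2, called genes, and the 2 highest and 2 lowest log2 fold changes of each role, other genes being named with 1 value. Pmaip1, Bbc3 and Bax, added after their values were seen, were given in every library as an exception. Outside the list, the plan was to name genes with an adjusted p under 0.05 and Cdkn1a. Fdxr and Jchain, added after their values were seen, were exceptions, and some p53 regulators and cell type markers were named as examples. Alternatives were DESeq2 1.42.0, other scalings, other count filters, no fold limit, a replicate block, a GC and length correction, and each library left out.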

Additional observations from a re-analysis of the deposited data

How the results depend on the processing

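Rprd1b kept its direction and its call under every alternative (-1.23 to -1.07). Over the whole table, 52 genes were called higher and 235 lower. The counts were 89 higher with DESeq2, 163 higher and 450 lower with no filter on low counts, 379 lower with library-size scaling and 400 lower with no fold change threshold. With a library left out they ranged from 62 to 135 higher and from 225 to 308 lower. Of the p53 genes, 2 were called higher and 0 lower. Without the fold threshold there were 4 higher and 2 lower, and library-size scaling gave 1 lower (Dcxr). With a library left out, 2 to 3 were higher and 0 to 1 lower. Their median of 0.11 was 0.0089 with library-size scaling, 0.14 with upper-quartile scaling and 0.17 after correction for GC content and length, and ran from 0.090 to 0.23 with a library left out. An adjusted p under 0.05 was reached under all 12 alternatives by 5 p53 genes (Ccng1, Eda2r, Phlda3, Zmat3 and Dcxr). The sign was positive under all of them in 17 genes and negative in 6. The matching shares over all genes tested were not computed, so these counts only describe the list. The cause of the shifts between settings was not tested.

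Replicate numbers are shared by the groups, so a replicate block was fitted. It gave 67 genes higher and 269 lower in the whole table and left 2 p53 genes called higher and 0 lower. The deviations of WT replicate 1 and Vil-CREPTKO replicate 1 from their group means had a correlation of 0.0277 over the genes tested. With 2 libraries per group the other pair mirrors this value and adds nothing. It cannot show whether same-numbered libraries shared a litter, day or preparation.

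With 2 libraries per group, leaving out a library leaves 1 in that group, which is then assumed to vary like the other group. The median absolute log2 difference between the group means was 0.22 for the p53 genes and 0.22 for all genes tested. Fewer than 100 counts in WT stand behind Phlda3, Eda2r and Gdf15 in each library. The reads of overlapping or near-identical genes could not be parted.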
